A study of Mus musculus with 6 samples.

Results

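The genes described here encode proteins of the smooth muscle contractile apparatus and of focal adhesions, other than actins and myosins. They were chosen by name, as 36 gene symbols, with earlier results of these data known. Counts of changed members are therefore set beside those of all tested genes for scale, and are no test of the set. Each symbol matched 1 row of the table of 48709 genes, and all 36 were among the 26747 genes tested. The study sequenced polyA RNA of hearts from C57BL6/J mouse embryos, with 3 libraries of double knockouts and 3 of controls. Double knockouts carried homozygous floxed alleles of Rbpms and of Rbpms2, plus a Cre transgene that the labels name XML Cre and that the study describes as deleting both genes in cardiomyocytes. Controls were littermates with the same homozygous floxed alleles and no Cre listed. Rbpms and Rbpms2 encode a pair of related RNA-binding proteins. The sources used here do not give the embryonic stage, the promoter behind the name XML or the number of hearts in a library. No group carried Cre without floxed alleles, so effects of Cre and of losing the genes cannot be told apart.

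Smooth muscle cells contract when myosin light chain kinase, activated by calcium and calmodulin, phosphorylates the regulatory light chain of myosin, and relax when myosin phosphatase removes that phosphate. Calponins, caldesmon, transgelin and smoothelin lie along the actin filaments of these cells. Focal adhesions tie actin to integrins through talin, vinculin, kindlin and the complex of ILK, PINCH and parvin, and related linkers sit in the costameres and intercalated discs of cardiomyocytes. Several smooth muscle genes, transgelin and calponin among them, are also expressed for a time in cardiomyocytes of the embryonic heart, and many are known targets of serum response factor (SRF) and its myocardin-family cofactors.

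Values below are normalised read counts as the authors deposited them, given per library for double knockouts 1 to 3 and then controls 1 to 3, or as mean ± SD (n = 3 libraries per genotype). Each fold change is the double knockout mean minus the control mean of log2(value + 1), with its SE, from a limma fit to all tested genes, and a gene is said to have risen or fallen when its Benjamini-Hochberg adjusted p was under 0.05. Library totals lay between 19770390 and 20215282. Rbpms averaged 697 ± 25.6 in double knockouts and 3787 ± 210.5 in controls, and Rbpms2 averaged 1454 ± 211 and 2577 ± 136 in the same order. Xist and Eif2s3y gave both libraries numbered 3 a male pattern and the other 4 a female one, so that this difference was balanced over the genotypes. Double knockout 2 stood apart in fibroblast and valve markers, whose summed value was 38991 there, against 25437 and 19501 in the other double knockouts and 21296 to 29928 in controls. The dependence of a gene's deviation on its GC content also differed between libraries, with Spearman's rho across genes of 0.13, -0.18 and -0.59 in double knockouts 1 to 3 and 0.28, 0.22 and 0.40 in controls 1 to 3. Every double knockout was below every control in rho, so that difference was not balanced over the genotypes.

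Most members that changed were lower in the double knockout. Of the 36 members, 9 fell and 1 rose. Of all tested genes 4.86% passed, 2.55% lower and 2.31% higher. In 31 members the mean reached 1000 in the higher genotype, and of the 4858 tested genes at that level 5.23% were lower and 4.08% higher. The median log2 fold change was -0.13 over the members and 0.02 over all tested genes, and 24 members lay below 0. After a fit of GC content and transcript length was subtracted, these medians were -0.068 and 0.034. Cnn1 fell most and was the only member to change by 2-fold or more. Read by role, 4 of 8 genes of the calponin family, smoothelins and caldesmon fell, as did 2 of 4 actin crosslinkers and membrane linkers and 2 of 6 genes of synaptopodins, Z-disc and desmin. In the focal adhesion group 1 of 12 fell and 1 rose, and 0 of 6 genes of myosin light chain kinase and phosphatase passed the limma threshold, with 0 of them at an unadjusted p under 0.05. At that unadjusted level were 16 of the 36 members, 5008 of the 26747 tested genes and 1489 of the 4858 whose mean reached 1000. The 3 double knockouts lay below every control in 14 members and above every control in 1, against 10.6% and 11.1% of all tested genes and 19.1% and 15.4% of those whose mean reached 1000. These were bulk tissue libraries, in which fewer cells of a type and less RNA per cell cannot be told apart.

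**Figure D1:**
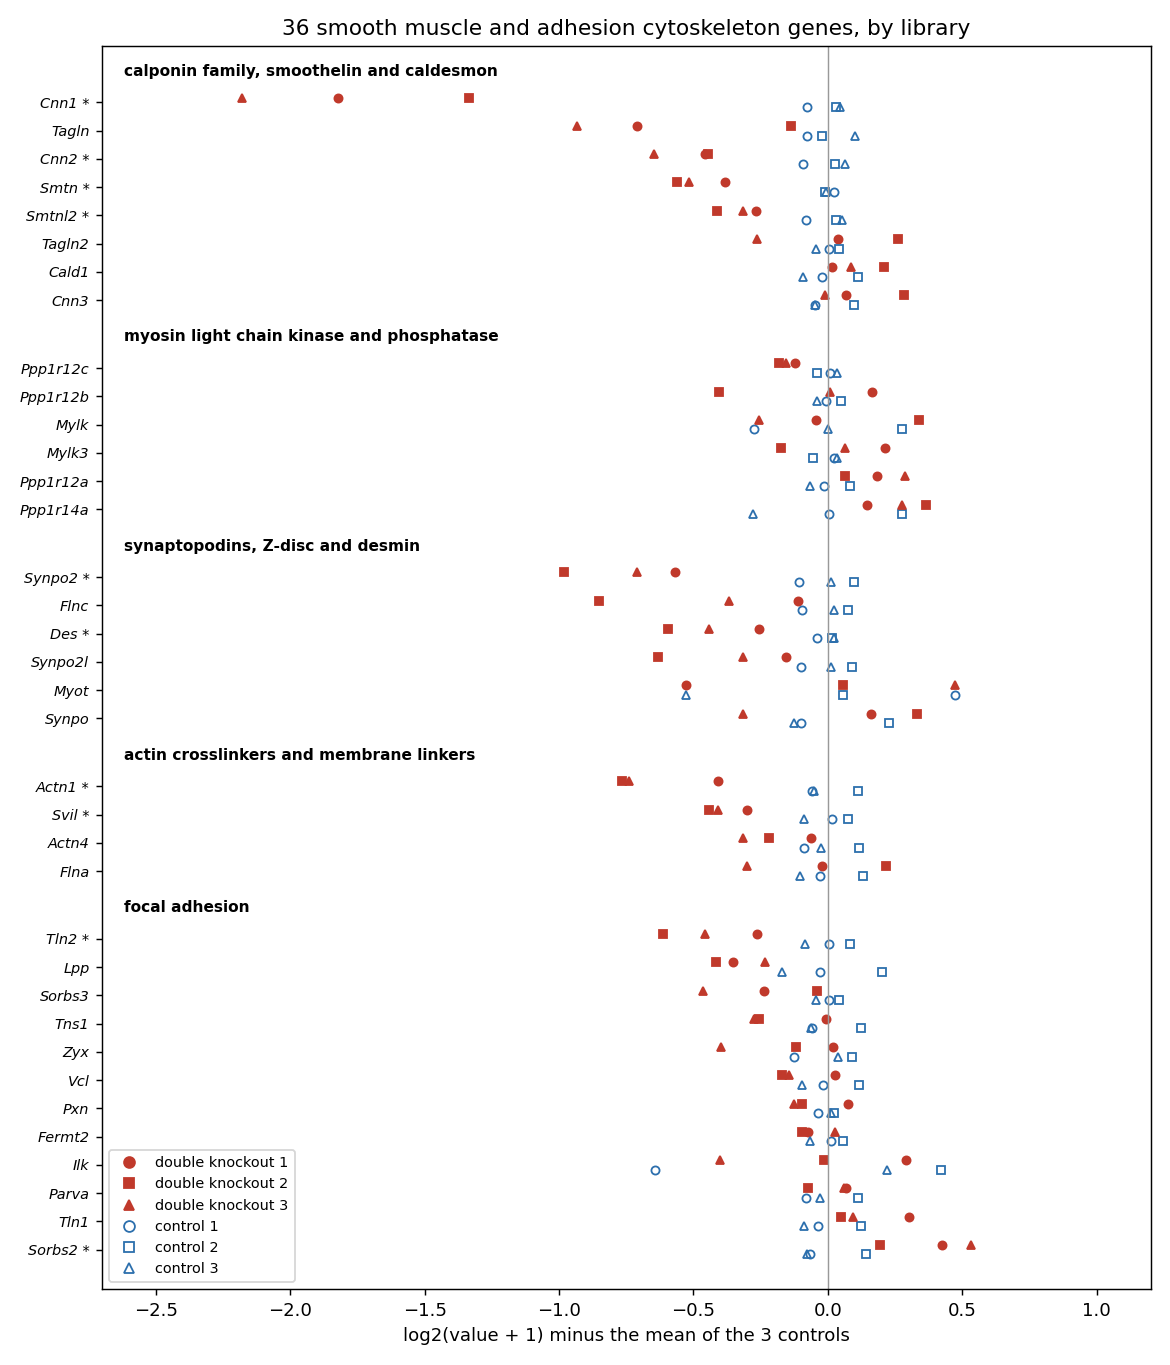
Each row is 1 of the 36 members, grouped by role, and each point is 1 library, plotted as log2(value + 1) minus the mean of the 3 controls (filled red, double knockouts; open blue, controls; an asterisk marks an adjusted p under 0.05). The double knockouts of Cnn1 lie farthest to the left, and no row of the kinase and phosphatase group has an asterisk.

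The calls were of unequal firmness. Those of Cnn1, Cnn2, Smtn, Synpo2 and Actn1 held with each library left out in turn and also without the robust option of limma, under which 1.31% of all tested genes passed, 0.77% lower and 0.538% higher. The other 5 calls, of Des, Tln2, Svil, Smtnl2 and Sorbs2, were lost without the robust option (adjusted p = 0.0921, 0.0886, 0.0630, 0.0706 and 0.139) and with at least 1 library left out. Without both libraries numbered 3, which leaves the 4 libraries of the female pattern, the call of Cnn1 remained and the other 9 were lost. With limma's variance trend turned off, all 10 calls were lost, with Cnn1 at an adjusted p of 0.0596.

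The calponin family held the largest change. Cnn1, calponin 1, an actin-binding protein of differentiated smooth muscle, was at 1480, 2072 and 1156 in the double knockouts, against 4962, 5350 and 5401 in the controls. All 3 double knockouts lay far below the lowest control, and double knockout 2 was the highest of them. The log2 fold change of Cnn1 was -1.78 ± 0.20 (adjusted p = 0.00452), a drop of 70.9%, and its smallest size under any other setting tried was -1.56. Cnn1 lies on chromosome 9, from 22099216 to 22109630 on the plus strand of GRCm38, the assembly of mm10.

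Cnn2, calponin 2, found in both smooth muscle and non-muscle cells, was at 4592, 4629 and 4031 in the double knockouts, against 5919, 6431 and 6592 in the controls (-0.52 ± 0.09, adjusted p = 0.00119). The groups did not overlap, and the gap between them was wider than the range of either. Cnn3, the acidic calponin, averaged 5238 ± 560 in double knockouts and 4830 ± 284 in controls (0.11 ± 0.09, adjusted p = 0.533), with overlapping groups. The 3 calponin genes thus had fold changes of -1.78, -0.52 and 0.11.

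Smtn, smoothelin, a marker of contractile smooth muscle, was at 1286, 1136 and 1172 in the double knockouts, against 1703, 1664 and 1668 in the controls (-0.49 ± 0.08, adjusted p = 0.00164). The controls were tightly grouped, and each double knockout lay below them. Smtnl2, a smoothelin-like gene, was at 2090, 1892 and 2025 in the double knockouts and 2380, 2569 and 2611 in the controls (-0.33 ± 0.08, adjusted p = 0.0275). That call was lost when any 1 library other than double knockout 1 was left out, with adjusted p up to 0.172.

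Tagln, transgelin or SM22 alpha, an early smooth muscle gene, was at 4225, 6278 and 3620 in the double knockouts, against 6545, 6793 and 7405 in the controls (-0.59 ± 0.19, adjusted p = 0.163). The groups did not overlap, but double knockout 2 came close to control 1. With double knockout 2 left out the difference was -0.82 (adjusted p = 6.26e-05), and with the other libraries left out in turn it did not pass. Of the exonic bases of Tagln, 67.9% are shared with the opposite-strand genes Pcsk7 and Gm48529 in GENCODE M21. Pcsk7 averaged 599.7 ± 56.9 in double knockouts and 713 ± 16.5 in controls. The library kit keeps strand, the sources used here do not name the strand setting of the counting, and the part of the overlap in the Tagln values was not tested. Tagln2, the transgelin of non-muscle cells, averaged 3676 ± 655 in double knockouts and 3609 ± 107 in controls (0.01 ± 0.11, adjusted p = 0.970). Cald1, caldesmon, averaged 2960 ± 206 in double knockouts and 2757 ± 201 in controls (0.10 ± 0.09, adjusted p = 0.567), and both groups overlapped in each of these genes.

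Because the SRF site known as the CArG box recurs in smooth muscle promoters, the RefSeq promoter windows (GRCm38.p6, 250 bases before to 50 after a start) were searched for it, as CC and GG around 6 bases of A or T, which reads alike on both strands. Windows were at hand for 28 of the 36 members, 37 windows in all. Tagln, Synpo, Pxn, Parva, Sorbs3, Myot, Svil and Tln2 had no window, so nothing is said here of a box in them. Of the 10 changed members 8 had a window, 10 windows in all with 3 of them of Sorbs2, and Svil and Tln2 were not searched. The box was in 3 of these windows, of Cnn2, Vcl and Fermt2, and in 1.63% of all 32851 windows. Only Cnn2 among these 3 genes passed the threshold. Its window (chr10:79988350-79988649, plus strand) is shown whole because it is the only one with the box among the 10 windows of these 8 changed members. The box is in capitals and begins 56 bases before the start.
Cnn2 promoter: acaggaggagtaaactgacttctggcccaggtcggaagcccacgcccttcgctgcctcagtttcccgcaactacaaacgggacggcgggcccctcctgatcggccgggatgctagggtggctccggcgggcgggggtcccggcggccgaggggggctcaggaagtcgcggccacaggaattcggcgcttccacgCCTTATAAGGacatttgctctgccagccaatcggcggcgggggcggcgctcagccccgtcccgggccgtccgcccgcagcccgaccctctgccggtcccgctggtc

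The box of Vcl begins 227 bases before the start and that of Fermt2 begins 204 bases before it, and both are shown with 10 bases on each side for comparison with the one of Cnn2. These windows lie at chr14:20929148-20929447 on the plus strand and chr14:45530016-45530315 on the minus strand, and the last line repeats the Cnn2 box at the same width.
Vcl: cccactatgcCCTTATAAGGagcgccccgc
Fermt2: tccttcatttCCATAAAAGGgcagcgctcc
Cnn2: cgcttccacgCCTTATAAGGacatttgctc
The boxes of Cnn2 and Vcl have the same letters. Vcl had a fold change of -0.10 ± 0.09 and Fermt2 of -0.05 ± 0.08, so a box in the window was found with and without a called change. The window of Cnn1 holds none. The muscle motif MCAT, CATTCC on either strand, which overlapped no CArG box in these windows, was in 13 of the 37 member windows (35.1%) and in 14.7% of all windows. Among the 10 windows of the 8 changed members searched it was in 2, those of Smtn and Smtnl2. A match in these windows is a match of letters and no measurement of binding.

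**Figure D2:**
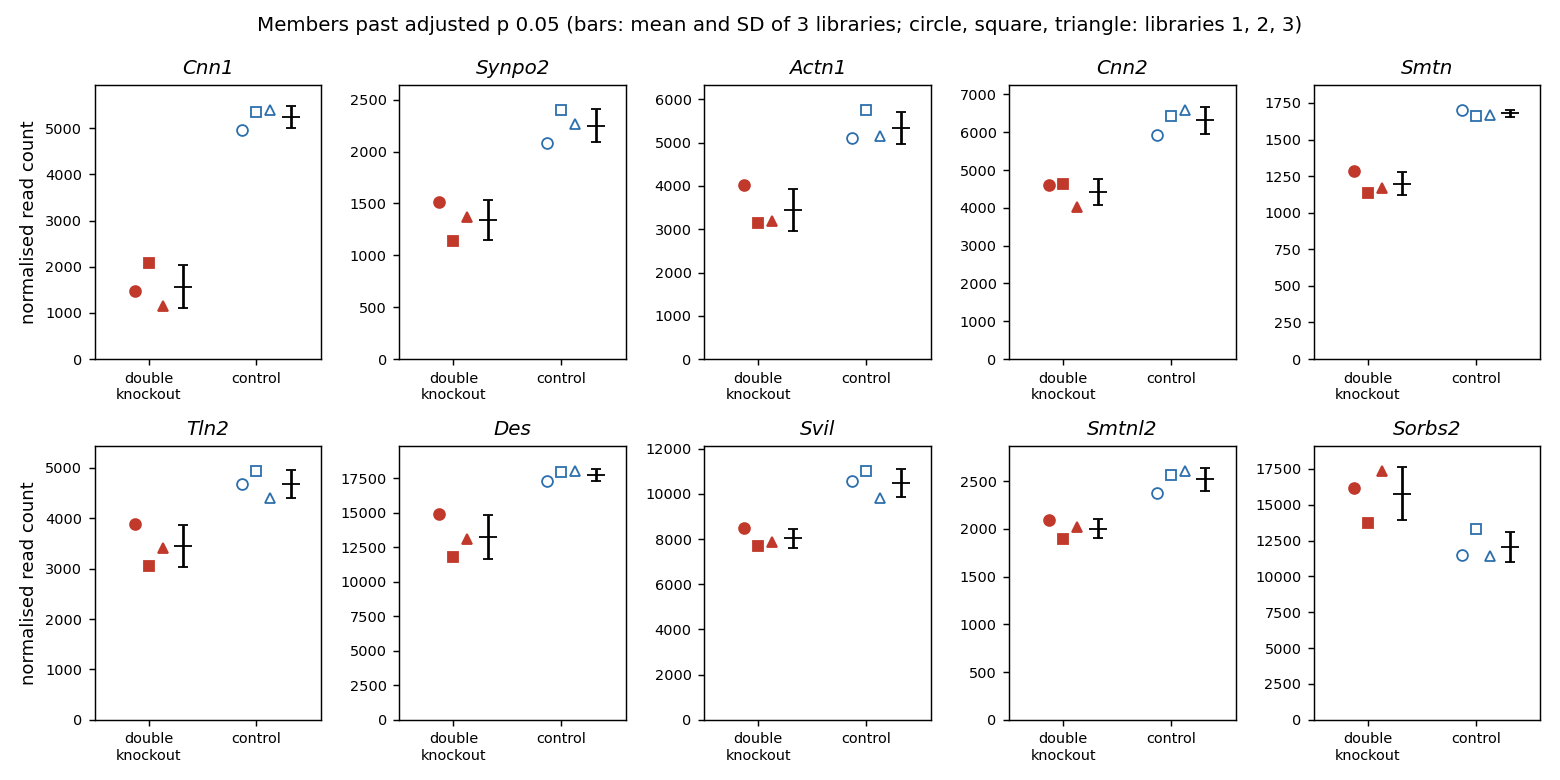
Each panel is 1 of the 10 members that passed the threshold, with normalised read counts on an axis from 0, double knockouts (filled red) left of controls (open blue), 1 point per library, and the mean and SD of each group in black. The groups do not overlap in any panel, and Sorbs2 is the panel in which the double knockouts are higher.

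In the group of synaptopodins, Z-disc proteins and desmin, Synpo2 had the lowest adjusted p of all 36 members. Synpo2, synaptopodin 2 or myopodin, an actin-bundling protein of Z-discs and of smooth muscle, was at 1516, 1136 and 1372 in the double knockouts, against 2083, 2402 and 2266 in the controls (-0.75 ± 0.10, adjusted p = 0.000127). All 3 double knockouts were well below the lowest control. Synpo2l, its heart and skeletal muscle relative, was at 7943, 5718 and 7116 in the double knockouts and 8265, 9417 and 8924 in the controls (-0.37 ± 0.11, adjusted p = 0.0526). Its groups did not overlap, although double knockout 1 lay close to control 1, and with double knockout 1 left out the call was made (-0.47, adjusted p = 0.0270). With double knockout 2 left out the difference of Synpo2l was -0.24 and did not pass. Synpo, the synaptopodin of kidney podocytes and neurons, averaged 979 ± 215 in double knockouts and 929 ± 131 in controls (0.06 ± 0.16, adjusted p = 0.882).

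Des, desmin, the muscle intermediate filament that links Z-discs to each other, was at 14887, 11772 and 13083 in the double knockouts, against 17286, 17947 and 18066 in the controls (-0.43 ± 0.09, adjusted p = 0.00806). The highest double knockout was below the lowest control. Leaving out control 1, control 3 or double knockout 3 ended this call (adjusted p up to 0.0723). Flnc, the muscle filamin, was at 15139, 9066 and 12666 in the double knockouts and 15301, 17231 and 16599 in the controls (-0.44 ± 0.17, adjusted p = 0.202). Double knockout 1 was just under control 1 and double knockout 2 far below, and without double knockout 1 the difference was -0.61 (adjusted p = 0.0196). Without double knockout 2 the difference of Flnc was -0.24 (adjusted p = 0.141). Myot, myotilin, a Z-disc protein of skeletal muscle, had 1 to 3 normalised counts in every library, too few to show a difference.

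Among actin crosslinkers and membrane linkers, Actn1, an alpha-actinin found at stress fibres and focal adhesions, was at 4014, 3141 and 3196 in the double knockouts, against 5118, 5760 and 5150 in the controls (-0.64 ± 0.10, adjusted p = 0.000503). Each double knockout was below each control, with double knockout 1 nearest to them. Svil, supervillin, a membrane-associated protein of the gelsolin family, was at 8495, 7700 and 7883 in the double knockouts and 10570, 11030 and 9837 in the controls (-0.38 ± 0.08, adjusted p = 0.0101), a call that ended when control 1 or double knockout 3 was left out (adjusted p up to 0.0976). Actn4, a non-muscle alpha-actinin, was at 6659, 5978 and 5583 in the double knockouts and 6533, 7530 and 6839 in the controls (-0.20 ± 0.09, adjusted p = 0.234). Here double knockout 1 was above control 1, so the groups overlapped. Flna, the filamin of non-muscle cells, was at 15802, 18629 and 13012 in the double knockouts and 15722, 17564 and 14909 in the controls (-0.03 ± 0.11, adjusted p = 0.894). Double knockouts of Flna lay on both sides of the controls, with double knockout 2 the highest library.

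In the focal adhesion group, Sorbs2 was the only member that rose. Sorbs2, an adaptor with SH3 domains also known as ArgBP2, found at Z-discs and intercalated discs, was at 16148, 13764 and 17386 in the double knockouts, against 11479, 13284 and 11410 in the controls (0.38 ± 0.10, adjusted p = 0.0254). Double knockout 2 and control 2 were close, and the call held only when the library left out was one of these (adjusted p up to 0.185 otherwise). Sorbs2 has the lowest GC content of the members, at 37.6% of its longest transcript, and after a fit of GC content and transcript length was subtracted its difference was 0.20 (adjusted p = 0.0647). Sorbs3, vinexin, a vinculin-binding relative, was at 871, 1000 and 745 in the double knockouts and 1030, 1057 and 998 in the controls (-0.25 ± 0.10, adjusted p = 0.183). Its groups touched, with double knockout 2 just above control 3, and without double knockout 2 the difference was -0.35 (adjusted p = 0.0480). Without double knockout 3 the difference of Sorbs3 was -0.14 (adjusted p = 0.512).

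Tln2, talin 2, the talin of striated muscle costameres, was at 3893, 3054 and 3405 in the double knockouts, against 4684, 4945 and 4405 in the controls (-0.44 ± 0.09, adjusted p = 0.00838). The groups did not overlap, and leaving out control 1 or double knockout 3 ended the call (adjusted p up to 0.0743). Tln1, talin 1, which activates integrins in most cells, was at 11492, 9644 and 9948 in the double knockouts and 9099, 10149 and 8774 in the controls (0.15 ± 0.09, adjusted p = 0.401). The groups of Tln1 overlapped, with control 2 above 2 of the double knockouts. Lpp, a LIM protein of focal adhesions and smooth muscle, was at 2895, 2769 and 3143 in the double knockouts and 3623, 4244 and 3280 in the controls (-0.33 ± 0.10, adjusted p = 0.0522). The groups of Lpp did not overlap, although double knockout 3 was near control 3.

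The remaining focal adhesion members did not pass. Vcl, vinculin, averaged 3531 ± 270 in double knockouts and 3775 ± 284 in controls, and Zyx, zyxin, 3784 ± 542 and 4219 ± 320 in the same order. Fold changes were -0.18 for Tns1, a tensin that links actin to integrin tails, -0.16 for Zyx, -0.10 for Vcl, -0.05 for the scaffold Pxn (paxillin) and for Fermt2 (kindlin 2), and 0.02 for Parva (alpha-parvin), with adjusted p between 0.303 and 0.933. Ilk, integrin-linked kinase, chosen for mention after its values were seen, was at only 20, 16 and 12 in the double knockouts and 10, 22 and 19 in the controls. Of its exonic bases, 89.7% are shared with Rrp8 and Taf10 on the opposite strand in GENCODE M21. Taf10 averaged 919 ± 62.6 in double knockouts and 1019 ± 110 in controls. The part of this overlap in the low values of Ilk was not tested, and they are not read as its level of expression.

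None of the kinase and phosphatase genes of the myosin light chain passed, and the genotypes overlapped in 5 of these 6 genes. Of all tested genes 4.86% passed and 21.7% had genotypes that did not overlap, so with 6 genes these counts do not set the group apart. Mylk3, the light chain kinase of cardiomyocytes, averaged 6249 ± 828 in double knockouts and 6073 ± 205 in controls (0.03 ± 0.09, adjusted p = 0.885). Mylk, the smooth muscle and non-muscle kinase, was at 371, 484 and 320 in double knockouts and 316, 463 and 383 in controls (0.01 ± 0.16, adjusted p = 0.981). The myosin-binding subunits of the phosphatase, Ppp1r12a, Ppp1r12b and Ppp1r12c, had fold changes of 0.18 ± 0.09, -0.08 ± 0.12 and -0.15 ± 0.08, with adjusted p of 0.277, 0.763 and 0.326. Ppp1r12c was the exception: its double knockouts, at 1303, 1250 and 1275, were all below the controls, at 1427, 1379 and 1454. Ppp1r14a, the phosphatase inhibitor CPI-17 of smooth muscle, averaged 45.7 ± 3.51 in double knockouts and 38.3 ± 7.51 in controls (adjusted p = 0.552), a low level at which small differences could not be shown.

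**Figure D3:**
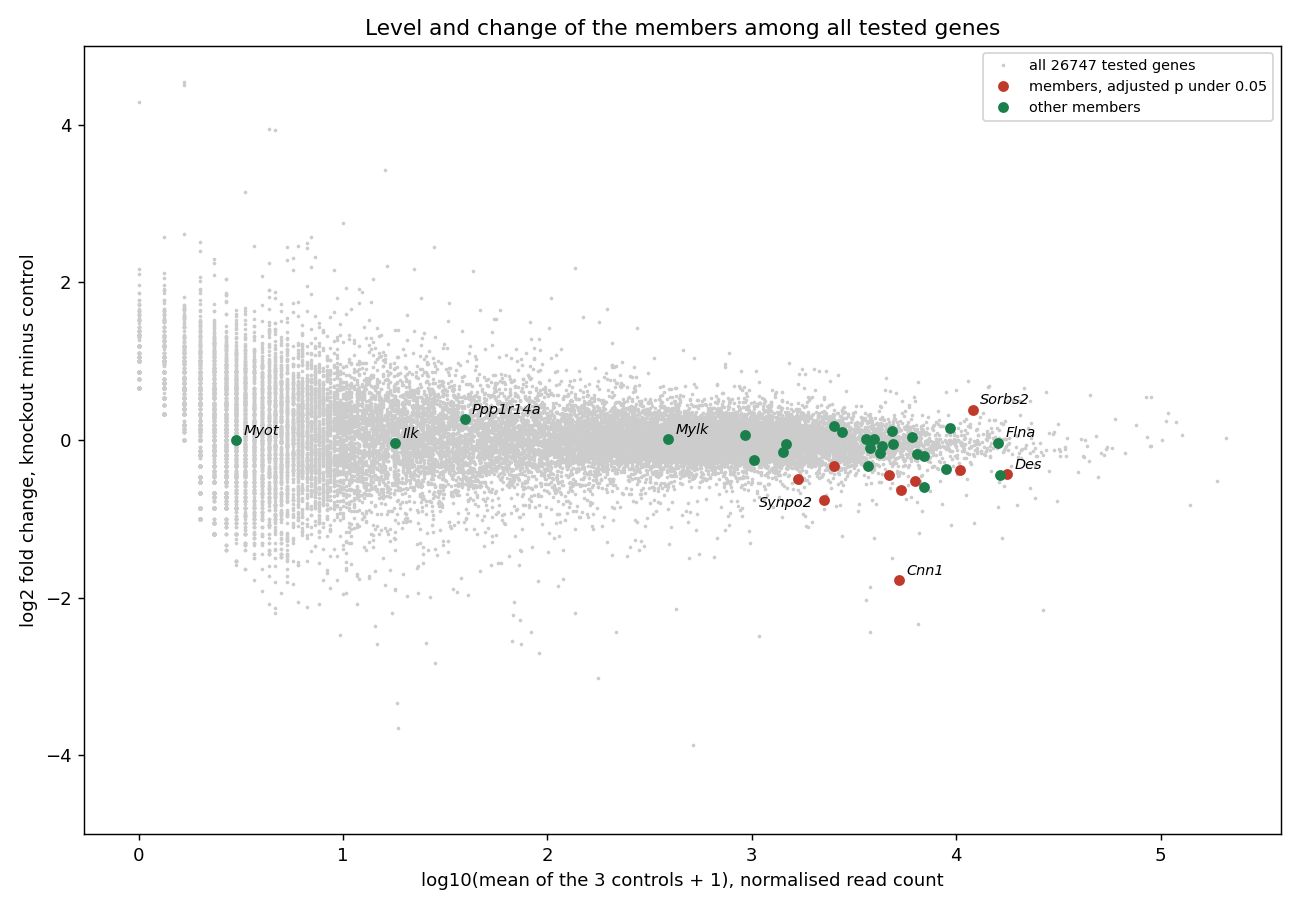
The x axis is log10 of the control mean plus 1 and the y axis the log2 fold change, knockout minus control, for all 26747 tested genes (grey) and the 36 members (red, adjusted p under 0.05; green, others). The 10 called members all had means above 1000, Cnn1 lies lowest among the members, and Myot, Ilk and Ppp1r14a lie at the left with means under 50.

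Level per length set the members in order, as mean normalised count per kilobase of the longest annotated transcript, a rough measure where genes use shorter transcripts. Exonic bases shared with opposite-strand genes made up 89.7% in Ilk, 67.9% in Tagln, 25.5% in Vcl, 17.7% in Cnn3 and 16.3% in Smtn. Their part in these levels was not tested. Des led in both genotypes, at 4375 in double knockouts and 5867 in controls, followed by Tagln at 2952 and 4335 in the same order. Cnn1 was at 659 per kilobase in double knockouts and 2200 in controls, where it was the fifth highest member, and it ranked 19 among the 36 in double knockouts. Sorbs2 was at 2454 in double knockouts, rank 3, and 1877 in controls, rank 9. Members also varied more between double knockouts than between controls. The SD of log2 values was larger among double knockouts in 28 of the 36 members, with medians of 0.171 in double knockouts and 0.093 in controls. This was not confined to the members: the SD was larger among double knockouts in 69.6% of tested genes whose mean reached 1000, with medians of 0.114 in double knockouts and 0.071 in controls. Double knockout 2 was the lowest of its group in 7 of the 9 members that fell, and the highest in Cnn1 and Cnn2.

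Ratios between family members were taken within each library, where the scaling of a library cancels. In 11 such pairs the smallest p that an exact two-sided permutation test of 3 libraries against 3 can give is 0.1, so none could pass, and 8 pairs reached it (adjusted p = 0.138 over the 11). Each of these 8 pairs holds a member whose own groups did not overlap, so the ratios are not independent of the values given above. The ratio Cnn1/Cnn2 averaged 0.352 in double knockouts and 0.830 in controls, a log2 difference of -1.26. Tln2/Tln1 was 0.339, 0.317 and 0.342 in the double knockouts, against 0.515, 0.487 and 0.502 in the controls, a log2 difference of -0.59. Synpo2l/Synpo2 was 5.24, 5.03 and 5.19 in the double knockouts, against 3.97, 3.92 and 3.94 in the controls, and varied less within a genotype than either gene did. Actn1/Actn4 averaged 0.567 in double knockouts and 0.767 in controls, Tagln/Tagln2 1.27 and 1.92, Sorbs2/Sorbs3 18.6 and 11.7, and Cnn3/Cnn2 1.19 and 0.766, in the same order. Mylk3/Mylk (16.6 in double knockouts and 16.1 in controls), Flnc/Flna and Ppp1r12b/Ppp1r12a overlapped between genotypes.

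**Figure D4:**
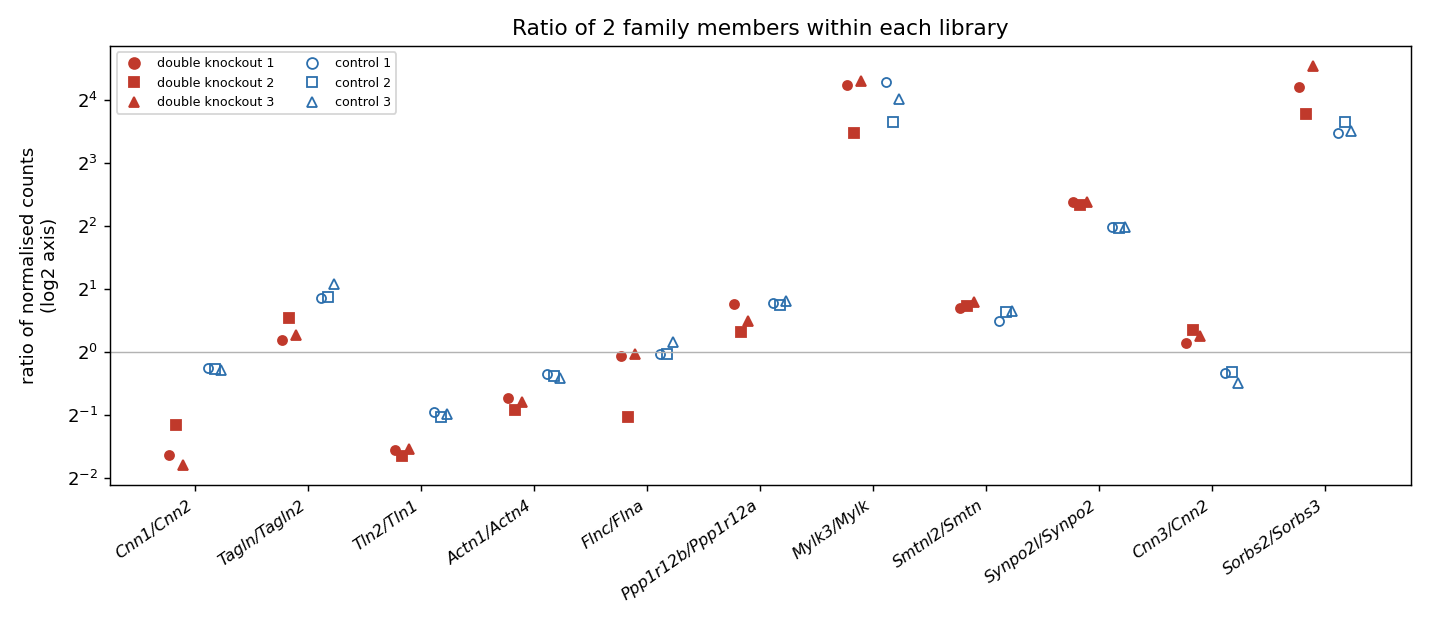
Ratio of normalised counts of 2 family members within each library, on a log2 axis, double knockouts (filled red) left of controls (open blue), for 11 pairs ordered by their log2 difference. Genotypes do not overlap in 8 pairs, 4 with a lower and 4 with a higher ratio in double knockouts, and Mylk3/Mylk shows the widest overlap.

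Related genes outside the 36 members were counted from lists chosen by name, with earlier results of these data known. They are therefore no independent check of the members. Of all tested genes 2.55% were lower and 2.31% higher. Of 20 further smooth muscle genes, 9 fell and 2 rose, with a median of -0.42. Besides contractile genes this list holds the regulators Srf, Myocd, Mkl1 and Mkl2 and the integrin Itga8. Srf was among those that fell (-0.65, adjusted p = 0.0002). The other regulators did not pass, with Mkl1 at -0.29 (adjusted p = 0.112), Myocd at -0.04 (adjusted p = 0.922) and Mkl2 at -0.02 (adjusted p = 0.947). In the same list Kcnmb1, a subunit of the calcium-activated potassium channel, had a log2 fold change of -2.14 (adjusted p = 5.20e-09). Myl9, a regulatory light chain of myosin, was at -1.25 (adjusted p = 4.42e-08) and Acta2, smooth muscle actin, at -2.15 (adjusted p = 4.32e-07). Of 24 further focal adhesion genes, 4 fell and 0 rose with limma, with a median of -0.01. At an unadjusted p under 0.05 were 8 of them, against 5008 of all 26747 tested genes. Itgb1bp2 (melusin), a muscle protein that binds integrin beta 1, was at 685, 736 and 689 in the double knockouts, against 1288, 1171 and 1335 in the controls (-0.84, adjusted p = 7.17e-06). Tgfb1i1 (Hic-5), a relative of paxillin found in smooth muscle, was at 880, 851 and 760 in the double knockouts, against 1363, 1501 and 1514 in the controls (-0.81, adjusted p = 1.32e-05). Lims2 (PINCH2), a partner of ILK, averaged 22 ± 8.54 in double knockouts and 48.3 ± 9.24 in controls (-1.16, adjusted p = 0.0202).

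Of 22 further genes of the light chain kinase and phosphatase pathway, 3 fell and 2 rose, with a median of -0.05. Myl9 and Myl6, both among those that fell, are light chains also counted among the smooth muscle genes above. Ppp1r14c (KEPI), a phosphatase inhibitor related to CPI-17, was at 4238, 3569 and 4439 in the double knockouts, against 2465, 2265 and 2526 in the controls (0.75, adjusted p = 4.75e-05). Of 26 paralogues and relatives of members, 25 were tested, 5 fell and 2 rose, with a median of -0.04. Ppp1r14c, which rose, and Ppp1r14b, which fell, are counted in both of these lists. Of all tested genes 2.55% fell and 2.31% rose. Besides Ppp1r14c, Tagln3, the neuronal transgelin, fell by 0.97 on the log2 scale (adjusted p = 0.00165) and Nes, the intermediate filament nestin, by 0.43 (adjusted p = 0.0143).

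Marker lists of cell types in the heart, and a list of skeletal muscle markers, were read beside these results. Of 8 mural and smooth muscle markers none passed with limma, and 2 were at an unadjusted p under 0.05, as were 5008 of all 26747 tested genes. The summed values were 7903 to 10507 in double knockouts and 8837 to 9054 in controls. Abcc9 gave the largest part of each sum, at 3887 to 6195 in double knockouts and 3964 to 4375 in controls. Myh11, the myosin heavy chain of smooth muscle, was at 11 to 13 in double knockouts and 13 to 26 in controls, Actg2 at 8 to 22 and 18 to 25, and Rgs5 at 17 to 38 and 30 to 35 in the same order. The other 5 had fold changes of 0.81 (Kcnj8, 17 to 44 in double knockouts and 12 to 22 in controls), 0.27 (Abcc9), 0.16 (Pdgfrb), -0.25 (Cspg4) and -0.26 (Notch3). Of 8 cardiomyocyte markers 1 fell, Myh6, and the summed values were 434649 to 533769 in double knockouts and 541800 to 601439 in controls. Without Myh6 the sums of the other 7 overlapped, at 359415 to 443638 in double knockouts and 405989 to 452085 in controls. Myh7 gave the largest part of these sums, at 189041 to 230962 in double knockouts and 197393 to 231079 in controls. Of the 8 cardiomyocyte markers 7 had fold changes below 0, with a median of -0.14, and Myh7 was at 0.02. With limma 3 were at an unadjusted p under 0.05, Myh6 (-0.82), Nkx2-5 (-0.29) and Tnnt2 (-0.17). In each of these 3 every double knockout was below every control. For fibroblast and valve markers the sums were 19501 to 38991 in double knockouts and 21296 to 29928 in controls, with 0 of 8 called by limma and 0 at an unadjusted p under 0.05. Among 8 endothelial and 8 epicardial markers 1 each rose, Emcn and Krt19, with sums of 24257 to 29420 and 6685 to 8314 in double knockouts and 22348 to 27179 and 6506 to 7906 in controls. At an unadjusted p under 0.05 there were 1 endothelial and 4 epicardial markers, and the epicardial ones were Krt19 (0.56) and Msln (1.08), higher, and Wt1 (-0.32) and Upk3b (-0.25), lower. Of 8 skeletal muscle markers 6 were tested and 2 fell, Ckm and Tnnt3, with sums of 185 to 212 in double knockouts and 270 to 316 in controls. The other 4 did not pass, with fold changes of 0.37 (Myh3), -0.01 (Myh8), 0.67 (Myog) and 0.53 (Myod1). Myog and Myod1 were at 0 to 5 normalised counts, and the median of the 6 was 0.18. The part of cell composition in the changes of the members was not tested.

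**Figure D5:**
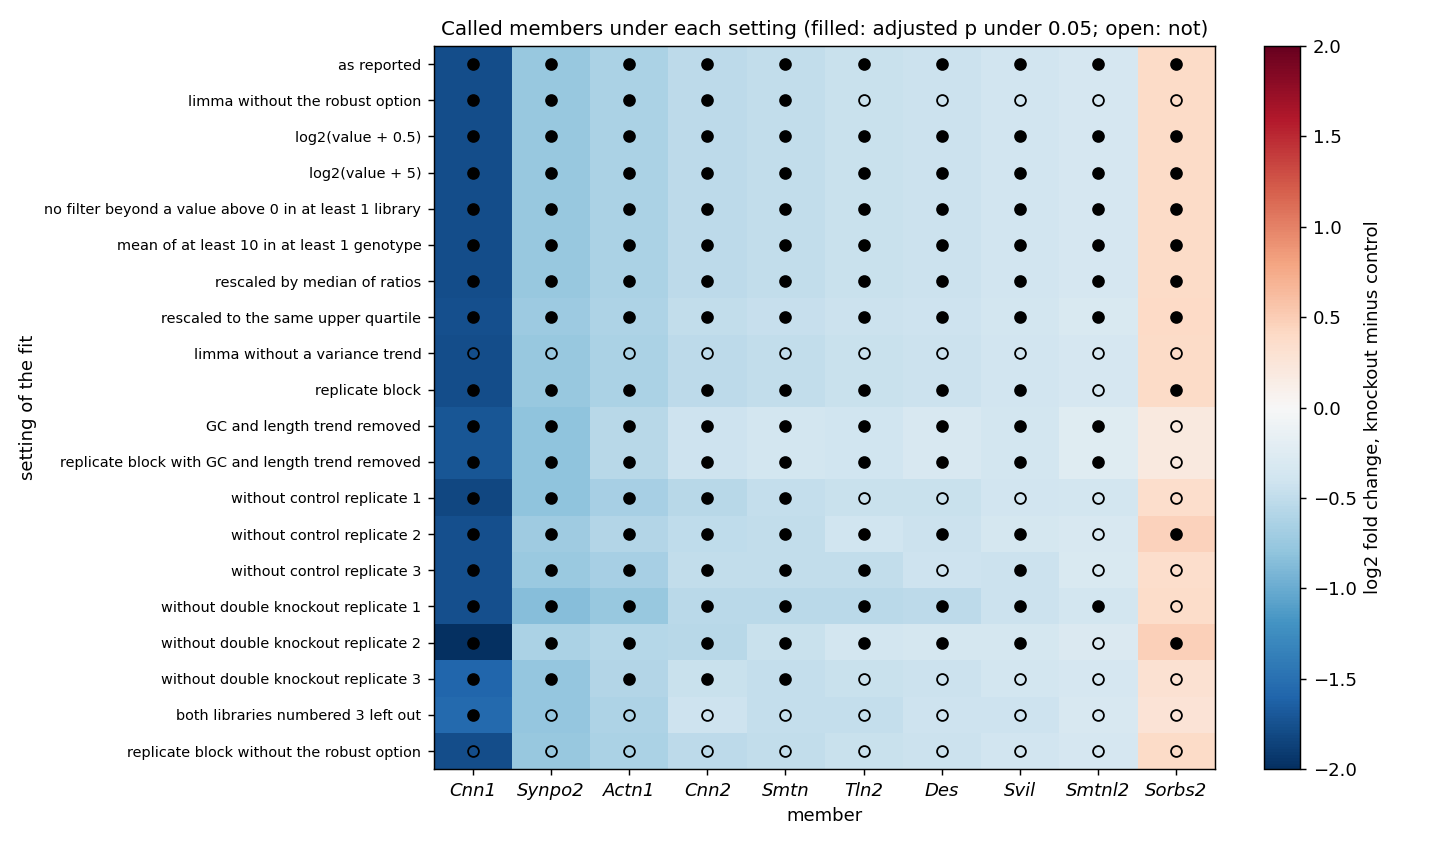
Colour gives the log2 fold change, knockout minus control, of the 10 called members (columns) under each setting of the fit (rows), and a filled circle marks an adjusted p under 0.05. Every cell keeps its direction, the calls of Cnn1, Synpo2, Actn1, Cnn2 and Smtn stay filled with each library left out, and no call is filled without a variance trend.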

How the data were processed

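The authors deposited 1 table with 1 column per library. The deposited values are a score, not raw counts: the authors multiplied each library's read counts by a factor of its own and then rounded, as judged from the values, since totals are nearly equal and whole numbers are missing at even spacing in 3 libraries. A count test was therefore not used. Per the submitters' processing notes the tools were featureCounts 1.5.0, STAR 2.4.2a, Trimmomatic, DESeq and DESeq2, and the build mm10, with no role or order. Per the labels' protocols, 500 ng of total RNA entered a stranded library preparation with single-end reads of 75 bases. The sources used here name no annotation and no strand or multi-mapping setting, so reads shared by near-identical relatives are uncertain.

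The fit, by limma 3.58.1 (R 4.3.3), took log2(value + 1) of the 26747 genes whose mean reached 1 in either genotype, with variance trend and robust moderation, two-sided, with Benjamini-Hochberg adjustment over all of them. The pseudocount makes changes of low genes look smaller. The fit was tested on simulated data. Coordinates, length, GC content and overlaps came from GENCODE M21, which held 99.3% of identifiers. For the trend alternative, splines of 5 degrees of freedom were fitted to GC content and length in protein-coding genes whose mean reached 50. Members and lists were chosen with earlier results of these data known. All members are accounted for: those past the threshold, the 6 others with the lowest adjusted p and the 4 others with the highest mean are given per library, and in outside lists at most 3 changed genes with the lowest adjusted p. Srf, Mkl1, Myocd and Mkl2, in the smooth muscle list, are given besides these. The alternatives were moderation, pseudocounts, filters, rescaling, variance trend, library number as a block, and libraries left out. No pair of libraries held the same values. No source says that libraries came from separate hearts, so p-values measure the spread between libraries, which may be technical.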

Additional observations from a re-analysis of the deposited data

How the results depend on the processing

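As reported, 618 genes were higher and 681 lower in the double knockout, and 1 member was higher and 9 lower. Without the robust option these counts were 144, 206, 0 and 5, without a variance trend 96, 73, 0 and 0, and without both libraries numbered 3 they were 14, 24, 0 and 1 (15, 12 and 11 members at an unadjusted p under 0.05 in these 3 fits). Over all tested genes 5065 of 26747, 3766 of 26747 and 2686 of 27639 were at that unadjusted level, in the same order. With no filter on low values 963 genes were higher. With each library left out in turn, 186 to 608 genes were higher and 234 to 739 lower, and 0 to 1 members were higher and 5 to 11 lower. The counts of all genes fell by more than 1.5 times without control 1, control 3 or double knockout 3, and the members lower were 5 without control 1 or double knockout 3. The cause was not tested. Pseudocounts, a stricter filter and rescaling kept the same 10 member calls. With no filter, Tagln, Flnc, Synpo2l and Lpp were called lower as well. With the GC and length trend removed, Sorbs2 lost its call, and Lpp (-0.45) and Tln1 (0.23) gained one (adjusted p = 0.000243 and 0.0122). The 9 members that fell kept their calls in that fit. The difference of Synpo2 grew to -0.80 and those of the others shrank, with Cnn2 at -0.42, Smtn at -0.36, Des at -0.31 and Smtnl2 at -0.25.

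Same-numbered libraries were not taken as pairs: their deviations from the genotype means correlated at 0.052, 0.070 and 0.329 over 13805 genes, highest for the libraries numbered 3, which share the male pattern and alone correlated best with their own number. With library number as a block in the fit, 674 genes were higher and 681 lower and 1 member higher and 10 lower. Under this replicate block Tagln and Flnc gained a call and Smtnl2 lost it (adjusted p = 0.0700). With the replicate block and no robust option, an alternative chosen after seeing the data, 2 genes were higher and 6 lower and 0 members were called in either direction. At an unadjusted p under 0.05 were 13 members and 3884 of all 26747 tested genes. With the GC and length trend removed, with or without the block, Flna was at 0.0222, Pxn at 0.0672, Ilk at 0.031 and Parva at -0.03, the opposite direction to the reported one. Without both libraries numbered 3, Flna was at 0.0461, Ilk at 0.25 and Parva at -0.0185. With each library left out in turn, Tagln2 ranged from -0.11 to 0.15, Mylk from -0.15 to 0.15, Mylk3 from -0.0554 to 0.14, Ppp1r12b from -0.20 to 0.086, Synpo from -0.0764 to 0.25, Flna from -0.16 to 0.10, Ilk from -0.36 to 0.17 and Parva from -0.0235 to 0.073. The log2 difference of the ratio Mylk3/Mylk ranged from -0.14 to 0.29, and was -0.11 without both libraries numbered 3. None of these was called under any setting. At 1 to 49 normalised counts, Myot, Ilk and Ppp1r14a had too few reads to show a moderate difference.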
